A study of Mus musculus with 18 samples.

Results

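The clustered protocadherins of the mouse were examined in cells sorted from lung tumors of a genetically engineered model of small cell lung cancer (SCLC). The members are all genes of the RNA count table whose symbols begin with Pcdha, Pcdhb or Pcdhg followed by a number or subfamily letter. They came to 58 of 46078 genes, under 57 symbols because 2 genes are both named Pcdha11. The alpha cluster holds 14 of them, the beta cluster 22 and the gamma cluster 22. They lie on chromosome 18 of GRCm38 between positions 36930184 and 37841873, an interval of 911.7 kb. The 49 open chromatin peaks inside this interval, of 111664 peaks in all, were followed beside the genes.

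The study compared 3 genotypes, each with 3 RNA-seq and 3 ATAC-seq libraries. ATAC-seq measures how open chromatin is. All mice carried floxed Rb1, Rbl1 and p53 alleles by the labels. The study's methods name Rbl1 in one place and Rbl2 in another. Mice with these alone are called TKO. TKO;Carm1 KO mice (CARM1 knockout) also lost the arginine methyltransferase CARM1, and TKO;NfibR388K mice (NFIB mutant) also carried NFIB, a transcription factor, with arginine 388 changed to lysine, the R388K allele. The Carm1 allele is floxed and removed by the same Cre, whereas the Nfib change is a knock-in carried by all cells of the mouse. Adenovirus-Cre was given into the airway at 8 weeks of age and the tumors were taken 28 weeks later from independent animals. By the methods the cells for RNA were sorted for the tdTomato reporter, which marks any airway cell that the virus reached.

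Clustered protocadherins are adhesion proteins of the cell surface that are best known from neurons, where each cell uses its own small choice of them. In the alpha and gamma clusters each variable exon has its own promoter and is spliced to constant exons that the whole cluster shares, whereas each beta gene is a single exon. The C-type members at the ends of the alpha and gamma clusters have less selective promoters. The choice of the other promoters is known to involve DNA methylation, CTCF, cohesin and distant enhancers.

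Total counts were 15848866 to 20915057 per RNA-seq library and 26917178 to 47653979 per ATAC-seq library. CPM values below (counts divided by the library size and multiplied by 1000000) are scaled by TMM factors. A member was called when the adjusted p was under 0.1 and the log2 fold change was at least 0.8 in size for RNA or 0.5 for a peak. Reads on exons that several members share were dropped in counting, so that an alpha or gamma member is represented by its variable exon. The median share of exon bases that no other gene overlaps was 45.7% for the alpha alternates, 54.6% for gamma A and B and 100% for beta. Pcdhga10 had no such base and 0 counts in every library. Before the results, the targeted genes were inspected. Carm1 stood at 97.6, 103 and 44.5 CPM in TKO and at 63.3, 79.0 and 50.7 CPM in CARM1 knockout. These ranges overlap, and a count over the whole gene does not check a deletion of part of it. Nfib stood at 420 to 579 CPM in TKO, at 74.4 to 216 CPM in CARM1 knockout and at 83.2 to 105 CPM in NFIB mutant.

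Libraries of 1 genotype were not alike in their cell type markers. The sum of 12 neuroendocrine markers, which define SCLC, was 1737 to 2279 CPM in TKO and 33.5 to 51.2 CPM in NFIB mutant. In CARM1 knockout it was 59.2 and 188 CPM in replicates 1 and 2 but 1871 CPM in replicate 3, within the TKO range. Of that last sum 832 CPM were Calca, named after its values were seen, which stood at 5.13 to 21.9 CPM in TKO. The sum of 6 fibroblast markers was 11.1 to 63.3 CPM in TKO, 14434 to 25754 CPM in CARM1 knockout and 9464 to 15888 CPM in NFIB mutant. Leukocyte markers summed to 4.69 to 56.4 CPM in TKO, 180 to 2666 CPM in CARM1 knockout and 27.0 to 525 CPM in NFIB mutant, with Cd3e and Ms4a1 at 0 in all 9 libraries. Endothelial markers summed to at most 17.4 CPM, with Emcn and Cldn5 at 0 in all 9. Lung epithelium markers ranged from 2.85 to 2284 CPM and overlapped between the genotypes. Reads on no counted feature, which can include introns of annotated genes, were 10 to 12.2% in TKO and 3.65 to 5.17% in the mutants. The neuroendocrine sum (apart from CARM1 knockout replicate 3), the fibroblast sum and the share of reads on no counted feature separate TKO from the mutants. The part of all these values in the results below was not tested, and fewer cells of a type and less RNA per cell cannot be told apart in such libraries.

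**Figure D1:**
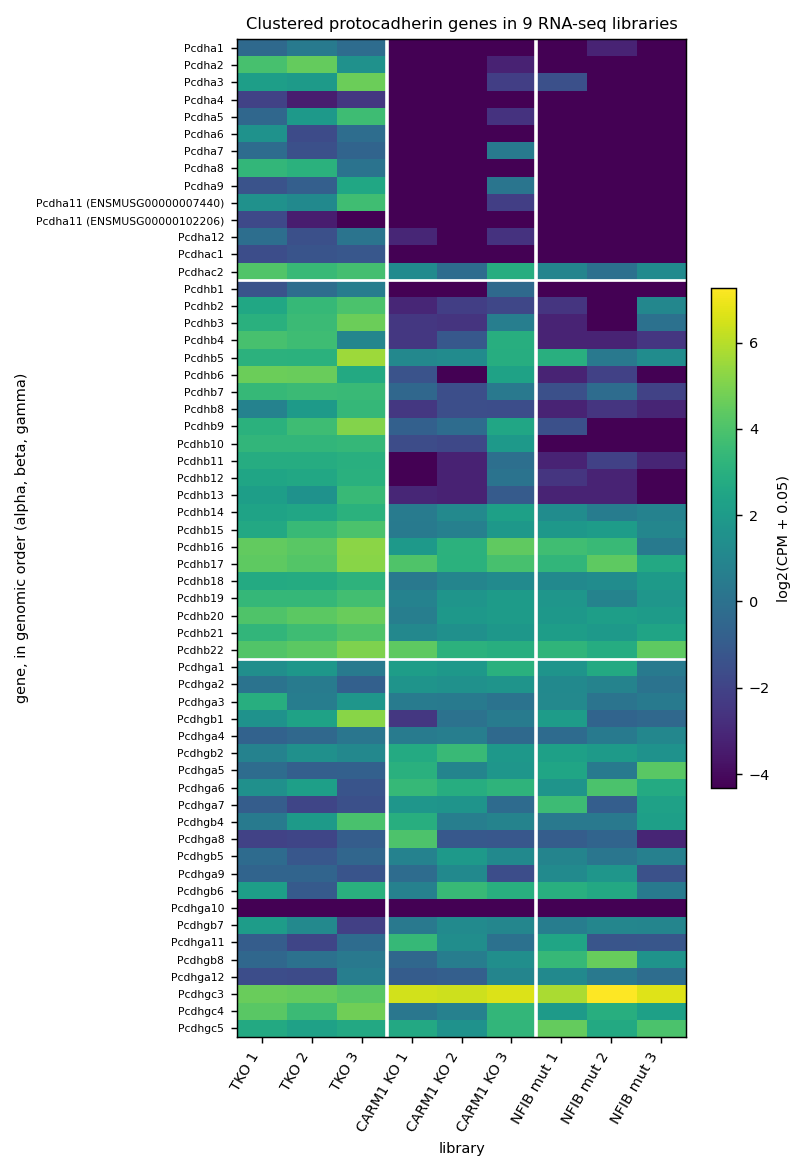
Level of each of the 58 members (rows, in genomic order) in each of the 9 RNA-seq libraries (columns), as log2(CPM + 0.05). Most alpha rows and first beta rows are near the bottom of the scale in most mutant libraries, with Pcdhac2 and Pcdhb5 among the exceptions. CARM1 knockout replicate 3 keeps more of these rows than replicates 1 and 2.

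The question was how the loss of CARM1, or of its methylation site on NFIB, went with the use of these genes. The 3 clusters did not move alike (plot of summed levels). Of the 51 members that passed the filter on low counts, 23 were lower and 7 higher in CARM1 knockout than in TKO, where 18.3% and 20.5% of all genes tested were called lower and higher. In NFIB mutant 29 were lower and 6 higher, where 23.5% and 22.3% of all genes were called. The median log2 fold change of the members was -1.95 in CARM1 knockout and -1.85 in NFIB mutant, beside -0.03 and -0.05 over all genes tested. Both comparisons use the same TKO libraries. All 6 mutant libraries lay below all 3 TKO libraries for 25 of the 51 members, and above them for 5, where 23.3% and 22.3% of all genes did so. The 7 members that did not pass the filter were Pcdha4, Pcdha6, the Pcdha11 gene ENSMUSG00000102206, Pcdha12, Pcdhac1, Pcdhga8 and Pcdhga10, and a member that passed may have done so only through the genotype where it was high.

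**Figure D2:**
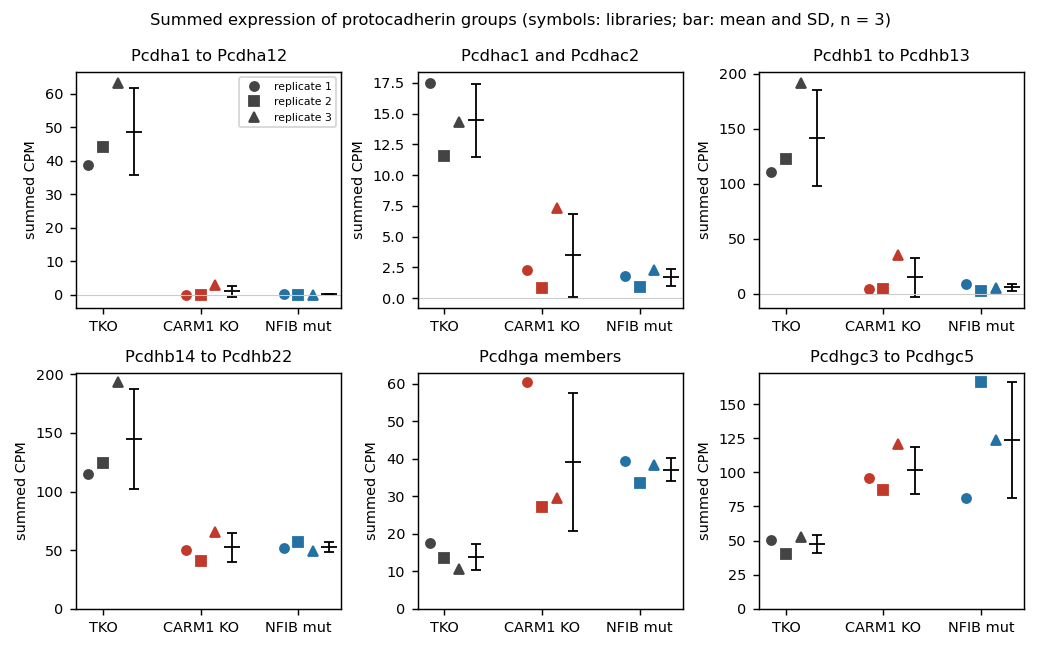
Summed CPM of 6 groups of members in each RNA-seq library (points), with the mean and SD of each genotype (n = 3). The alpha alternates and the first beta members are far lower in the mutants, the last beta members less so, and the sums of gamma A and of the gamma C-type members, the latter mostly Pcdhgc3, are higher.

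The alpha alternates, Pcdha1 to Pcdha12, were the most depleted group. They summed to 38.8, 44.0 and 63.3 CPM in the TKO libraries, with a mean of 48.7 ± 12.9 (SD, n = 3). In CARM1 knockout the sums were 0.0677, 0 and 2.97 CPM (1.01 ± 1.70), and in NFIB mutant 0.304, 0.0616 and 0 CPM (0.122 ± 0.160). The mean was thus 48.1-fold lower in CARM1 knockout and 400-fold lower in NFIB mutant, and no mutant library reached the TKO range. Nearly all alpha counts of CARM1 knockout came from replicate 3, and without it the mean was 0.0338 CPM, 1439-fold lower than TKO. The NFIB mutant level rested on 6 reads, 5 of them in replicate 1. Their counting interval put the ratio of pooled levels, 396-fold, between 182-fold and 1078-fold, and without replicate 1 the mean was 0.0308 CPM and 1582-fold lower, so the order of the mutants is not settled by these reads. Members at 1 CPM or more numbered 5, 6 and 7 in the TKO libraries, 2 in CARM1 knockout replicate 3 and 0 in the other 5 mutant libraries.

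Of the 12 alpha alternates 8 were tested. All 8 were lower in NFIB mutant, where 23.5% of all genes were lower, and 6 were lower in CARM1 knockout, where 18.3% were. In NFIB mutant 6 of the 8 had 0 reads and so passed the filter through other genotypes. A call for these could only be lower, so their number is a description. The median log2 fold change with members without counts set to their bound was -6.63 in CARM1 knockout and -6.56 in NFIB mutant. Without CARM1 knockout replicate 3, 10 of 10 tested were lower in that genotype. The share of all genes lower without that library is not given here, so this count describes the members alone. Each alpha alternate is an adhesion receptor that differs from its neighbours mainly in its extracellular domain. Pcdha2 (ENSMUSG00000104148, first exon at position 36939205) had 305, 526 and 65 reads in TKO, 0, 0 and 1 in CARM1 knockout and 0, 0 and 0 in NFIB mutant. It was 672-fold lower in CARM1 knockout, with a 95% counting interval of 121 to 26550 for that 1 read, and in NFIB mutant at least 218-fold lower against a floor of 3 counts over the group (adjusted p = 0.00682 and 0.00438). Pcdha8 (ENSMUSG00000103800) had 211, 194 and 23 reads in TKO and 0 in all 6 mutant libraries, at least 107-fold and at least 104-fold lower (adjusted p = 0.0215 and 0.0180). Neither gene overlapped between TKO and the mutants.

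Pcdha3 had 92, 91 and 564 reads in TKO, 0, 0 and 3 in CARM1 knockout and 5, 0 and 0 in NFIB mutant. It was 187-fold lower in CARM1 knockout, with a counting interval of 63.9 to 906, and lower by a log2 fold change of -6.68 ± 1.79 (SE) in NFIB mutant (adjusted p = 0.0198 and 0.0204). The TKO libraries themselves differed in which alpha member they used. Per kb of exon that no other gene shares, Pcdha2 took 35.2% and 51.2% of the alpha level in TKO replicates 1 and 2, with Pcdha8 next. In TKO replicate 3 Pcdha3 led with 38.3%, and Pcdha2 and Pcdha8 were at their lowest among the TKO libraries. The other 5 tested alternates had fitted log2 fold changes, which are no bounds where a gene had 0 reads, of -7.12 to -0.41 in CARM1 knockout, where 3 were called, and of -9.76 to -5.11 in NFIB mutant, where 5 were called. Pcdha7 and Pcdha9, named here after their values were seen, were the pair not called in CARM1 knockout. Pcdha7 stood at 0.816, 0.306 and 0.619 CPM in TKO, at 0, 0 and 1.29 CPM in CARM1 knockout and at 0 in NFIB mutant.

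The C-type members of the alpha cluster share its constant exons. Pcdhac1 had 6, 8 and 9 reads in TKO and 0 in all 6 mutant libraries, at least 5.75-fold lower in the first genotype and at least 5.60-fold in the second, and was too low to be tested. Pcdhac2 (ENSMUSG00000102697), the more abundant of them, stood at 17.2, 11.2 and 13.9 CPM in TKO, at 2.30, 0.815 and 7.29 CPM in CARM1 knockout and at 1.82, 0.923 and 2.28 CPM in NFIB mutant. All mutant libraries lay below TKO, with CARM1 knockout replicate 3 the nearest. Its log2 fold change was -2.02 ± 0.77 (adjusted p = 0.0730) in CARM1 knockout and -3.07 ± 0.80 (adjusted p = 0.0181) in NFIB mutant.

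All 22 beta genes passed the filter, and no beta gene rose. In CARM1 knockout 13 were lower and in NFIB mutant 19, with median log2 fold changes of -2.60 and -4.29 (-3.88 for the latter with members without counts at their bound). The shares lower over all genes were 18.3% and 23.5%. Summed beta RNA was 287 ± 86.5 CPM in TKO, with 67.3 ± 29.8 CPM left in CARM1 knockout and with 58.5 ± 3.34 CPM left in NFIB mutant. The beta genes parted by their place in the cluster, a division made after the values were seen. Pcdhb1 to Pcdhb13, nearest to the alpha cluster, summed to 111, 123 and 192 CPM in TKO, to 4.47, 4.89 and 35.6 CPM in CARM1 knockout and to 9.17, 2.71 and 5.84 CPM in NFIB mutant, 9.47-fold and 24.1-fold lower on average, and 30.4-fold lower in CARM1 knockout without its replicate 3. Pcdhb14 to Pcdhb22 summed to 115, 125 and 194 CPM in TKO, to 50.4, 40.8 and 65.7 CPM in CARM1 knockout and to 51.8, 57.2 and 48.9 CPM in NFIB mutant, 2.76-fold and 2.75-fold lower. All 9 genes of the second set were above 1 CPM in all 9 libraries. Of the first set 12, 12 and 13 reached 1 CPM in TKO but 1, 1 and 8 in CARM1 knockout and 1, 1 and 2 in NFIB mutant.

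Of Pcdhb1 to Pcdhb13, 8 were lower in CARM1 knockout (median -3.92) and 13 in NFIB mutant (median -6.58, or -6.09 with members without counts at their bound). The CARM1 knockout count was 13 without replicate 3 and 5 without replicate 2. Of Pcdhb14 to Pcdhb22, 5 and 6 were lower (medians -1.95 and -1.61). For both sets the shares lower over all genes were 18.3% and 23.5% with all 9 libraries. With a library left out the shares are not given here, so those counts describe the members alone. Pcdhb5 is an adhesion protein of the first set and stood at 8.63, 8.43 and 47.8 CPM in TKO, at 2.1, 2.39 and 7.29 CPM in CARM1 knockout and at 7.95, 1.23 and 2.41 CPM in NFIB mutant. The groups did not overlap, although NFIB mutant replicate 1 came close to TKO, and both falls were called (-2.46 ± 1.01, adjusted p = 0.0912, and -2.48 ± 1.01, adjusted p = 0.0786). Pcdhb10 had 203, 221 and 233 reads in TKO, 4, 4 and 65 in CARM1 knockout and 0 in all 3 NFIB mutant libraries. In NFIB mutant it was at least 160-fold lower (adjusted p = 0.00814), while its log2 fold change of -2.83 ± 1.18 in CARM1 knockout missed the threshold (adjusted p = 0.110). TKO replicate 3 again stood apart in choice, since Pcdhb6 led the beta genes per kb in TKO replicates 1 and 2 and Pcdhb5 in replicate 3.

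The 3 most abundant members of the last beta genes were not called. Pcdhb16 stood at 22.2, 19.4 and 37.5 CPM in TKO, at 3.72, 8.68 and 21.6 CPM in CARM1 knockout and at 13, 11.6 and 1.33 CPM in NFIB mutant, and only CARM1 knockout replicate 3 reached the TKO range (-1.22 ± 0.87, adjusted p = 0.295; -1.61 ± 0.88, adjusted p = 0.168). Pcdhb17 stood at 21.0, 17.9 and 36.6 CPM in TKO, at 16.4, 8.38 and 14.5 CPM in CARM1 knockout and at 9.83, 20.5 and 6.34 CPM in NFIB mutant (-0.94 ± 0.50, adjusted p = 0.172; -1.04 ± 0.50, adjusted p = 0.124). Pcdhb22 stood at 17.0, 20.4 and 32.4 CPM in TKO, at 21.1, 8.56 and 7.52 CPM in CARM1 knockout and at 9.53, 7.20 and 20.8 CPM in NFIB mutant (-0.91 ± 0.55, adjusted p = 0.223; -0.90 ± 0.55, adjusted p = 0.216). For these genes at least 1 mutant library reached the TKO range. Per kb, Pcdhb16, Pcdhb17 or Pcdhb22 led the beta genes in every mutant library, though not the same one in all libraries of a genotype. The other 17 beta genes had log2 fold changes of -6.05 to -1.21 in CARM1 knockout, with 12 called, and of -7.73 to -1.39 in NFIB mutant, with 17 called.

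The gamma cluster had calls in both directions. Of its 20 tested members 7 were higher and 3 lower in CARM1 knockout, and 6 higher and 1 lower in NFIB mutant. Over all genes 20.5% and 18.3% were so called in the first genotype and 22.3% and 23.5% in the second. The count of 7 was 2 without TKO replicate 1, 4 without TKO replicate 2 or 3, and 3 without CARM1 knockout replicate 1. Shares over all genes with a library left out are not given here. A general change in calls therefore cannot be told apart from one at these members. Gamma A summed to 17.5, 13.5 and 10.6 CPM in TKO, to 60.4, 27.3 and 29.7 CPM in CARM1 knockout and to 39.5, 33.6 and 38.2 CPM in NFIB mutant, 2.83-fold and 2.68-fold higher on average, and every mutant library was above TKO. Of 10 tested gamma A members 4 were higher and 1 lower in CARM1 knockout and 2 higher in NFIB mutant, with medians of 1.39 and 1.38. In NFIB mutant this share of 20% higher is near that over all genes. Gamma B summed to 16.2, 15.8 and 63.4 CPM in TKO (31.8 ± 27.4), to 24.5 ± 6.81 CPM in CARM1 knockout and to 28.9 ± 11.6 CPM in NFIB mutant, and these ranges overlap. TKO replicate 3 set the TKO mean, which was 16.0 CPM without that library, a comparison added after seeing the data. Of 7 gamma B members 2 were higher and 1 lower in each mutant, also near the shares over all genes. The gamma B median was 0.66 in CARM1 knockout and 0.26 in NFIB mutant, and the latter was -0.08 under scaling by library totals alone.

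Gamma A and B members are alternates like those of the alpha cluster. Pcdhga5 stood at 0.816, 0.524 and 0.531 CPM in TKO, at 7.99, 1.80 and 3.37 CPM in CARM1 knockout and at 5.58, 1.29 and 19.6 CPM in NFIB mutant. The groups did not overlap, and it was higher in CARM1 knockout (2.8 ± 1.0, adjusted p = 0.0618) and NFIB mutant (3.81 ± 1.05, adjusted p = 0.0216). Pcdhga7 stood at 0.480, 0.218 and 0.310 CPM in TKO, at 3.38, 3.14 and 0.785 CPM in CARM1 knockout and at 12.2, 0.492 and 4.82 CPM in NFIB mutant. It too was higher in both mutants with no overlap (2.84 ± 1.10, adjusted p = 0.0771, and 4.09 ± 1.15, adjusted p = 0.0236), although NFIB mutant replicate 2 was only just above TKO. Pcdhga11 stood at 0.480, 0.218 and 0.796 CPM in TKO, at 10.6, 2.5 and 0.954 CPM in CARM1 knockout and at 5.46, 0.369 and 0.381 CPM in NFIB mutant. It was higher in CARM1 knockout at the edge of the threshold (3.22 ± 1.37, adjusted p = 0.0999) and not called in NFIB mutant (2.04 ± 1.31, adjusted p = 0.235).

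Pcdhgb8 is annotated as a polymorphic pseudogene, unlike the other gamma A and B members. It stood at 0.672, 0.961 and 1.24 CPM in TKO, at 0.677, 1.46 and 2.58 CPM in CARM1 knockout and at 10.9, 23.6 and 3.04 CPM in NFIB mutant. All NFIB mutant libraries were above all others, and it was higher there (3.70 ± 0.86, adjusted p = 0.0116) but not called in CARM1 knockout (0.71 ± 0.78, adjusted p = 0.497). Pcdhga6, the gamma A member of highest mean level, stood at 2.78, 4.54 and 0.354 CPM in TKO, at 10.7, 7.45 and 9.20 CPM in CARM1 knockout and at 3.16, 15.5 and 6.66 CPM in NFIB mutant. It was called in neither (1.83 ± 0.89, adjusted p = 0.141; 1.72 ± 0.89, adjusted p = 0.148). The other 12 tested gamma A and B members had log2 fold changes of -4.14 to 2.04 in CARM1 knockout, with 3 higher and 2 lower, and of -3.02 to 1.89 in NFIB mutant, with 1 higher and 1 lower. The one that was lower in both was Pcdhgb1, named after its values were seen, at 2.97, 5.11 and 36.1 CPM in TKO, at 0.135, 0.990 and 1.35 CPM in CARM1 knockout and at 4.13, 0.616 and 0.698 CPM in NFIB mutant. Its calls rested on TKO replicate 3, since the log2 fold changes of -4.14 ± 1.37 and -3.01 ± 1.30 were -2.25 ± 1.13 (adjusted p = 0.162) and -1.13 ± 1.11 (adjusted p = 0.434) without that library.

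Nearly every library had its own leading gamma A or B member. Per kb of unshared exon, Pcdhga3 led in TKO replicate 1 and Pcdhgb1 in TKO replicates 2 and 3, where it took 50.9% of the level in replicate 3. In CARM1 knockout the leaders were Pcdhga11, Pcdhgb6 and Pcdhga6 in replicates 1, 2 and 3. In NFIB mutant they were Pcdhga7, Pcdhgb8 and Pcdhga5. Within a genotype the highest library exceeded the lowest by a median of 2.60-fold over 18 gamma A and B members in TKO, 3.81-fold over 17 in CARM1 knockout and 4.91-fold over 17 in NFIB mutant. Tested genes with a mean CPM up to that of the highest gamma A or B member had medians of 2.24-fold, 2.28-fold and 2.22-fold. That set had no lower limit of CPM matched to the members. Pcdhga8, named after its values were seen, was the widest case in CARM1 knockout at 16.3, 0.408 and 0.393 CPM, and it did not pass the filter.

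The C-type members of the gamma cluster each behaved differently. Pcdhgc3 (ENSMUSG00000102918), the member with the highest level per kb of unshared exon in every genotype, stood at 24.2, 23.2 and 19.1 CPM in TKO, at 88.5, 82.7 and 101 CPM in CARM1 knockout and at 54.8, 153 and 103 CPM in NFIB mutant. The groups did not overlap, and it was higher in CARM1 knockout (2.03 ± 0.34, adjusted p = 0.00440) and NFIB mutant (2.22 ± 0.34, adjusted p = 0.00251). Its level per kb of unshared exon was 12.2 CPM in TKO, against 49.8 CPM in CARM1 knockout and against 56.8 CPM in NFIB mutant. Per kb of all its exons it was 4.03 CPM in TKO, below Pcdhb5 at 6.11 CPM, and it still led in the mutants at 16.5 and 18.8 CPM. Pcdhgc4 (ENSMUSG00000023036), the next C-type member along the chromosome, stood at 19.8, 12 and 26.8 CPM in TKO, at 1.15, 1.63 and 9.98 CPM in CARM1 knockout and at 3.88, 7.63 and 4.69 CPM in NFIB mutant. All mutant libraries were below TKO, and it was lower in CARM1 knockout (-2.19 ± 0.83, adjusted p = 0.0738) while NFIB mutant just missed the threshold (-1.85 ± 0.82, adjusted p = 0.101). Pcdhgc5 (ENSMUSG00000102543), the last of the cluster, stood at 6.48, 4.85 and 6.33 CPM in TKO, at 6.23, 2.97 and 9.93 CPM in CARM1 knockout and at 22.7, 6.40 and 15.9 CPM in NFIB mutant. It was higher in NFIB mutant (1.35 ± 0.58, adjusted p = 0.0904), although replicate 2 there fell within the TKO range, and not called in CARM1 knockout (0.12 ± 0.57, adjusted p = 0.887).

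CARM1 knockout and NFIB mutant were also set against each other. No member was called by edgeR in this contrast, and 0% of all genes were. The smallest adjusted p among the members was 0.495, and 5 members and 1415 genes had an unadjusted p under 0.05. DESeq2 called 540 genes, which is 1.97% of those it tested, and 4 of them were members. Pcdhb10, with 73 reads in CARM1 knockout and 0 in NFIB mutant, was higher in the former by a factor of at least 23.7, and Pcdhb4 and Pcdhb9 were higher there by log2 fold changes of 5.01 and 4.53 (DESeq2 adjusted p = 0.00416, 0.0388 and 0.0463), and Pcdhgb8 was lower by -3.0 (adjusted p = 0.0135). The edgeR adjusted p for them ran from 0.495 to 0.524. In CARM1 knockout replicate 3, Pcdhb4 was at 7.52 CPM and Pcdhb9 at 5.72 CPM, whereas in replicates 1 and 2 both were at 0.815 CPM or less. Pcdhb10 likewise had 65 of its 73 reads in replicate 3.

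**Figure D3:**
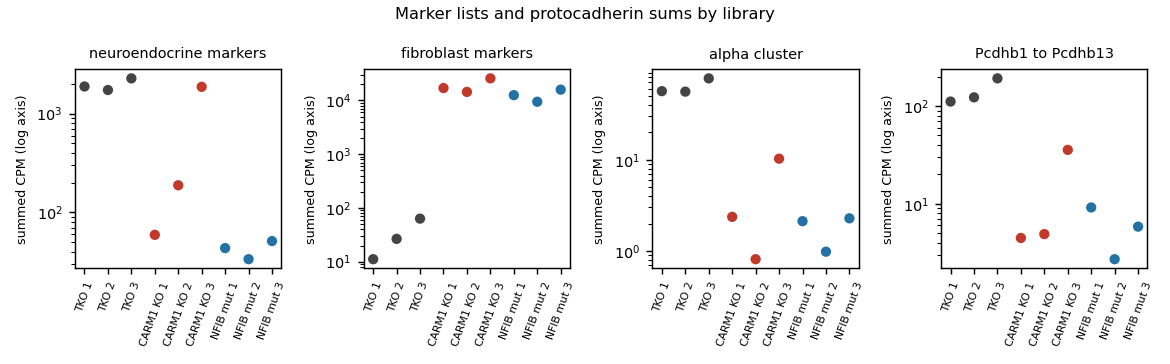
Summed CPM of neuroendocrine markers, fibroblast markers, the alpha cluster and Pcdhb1 to Pcdhb13 in each RNA-seq library, on a log axis. CARM1 knockout replicate 3 has neuroendocrine markers at 1871 CPM and more alpha and beta RNA than the other mutant libraries, while its fibroblast markers are at 25754 CPM.

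The neuroendocrine markers and the alpha and beta clusters had higher sums in all 3 TKO libraries than in NFIB mutant. Within CARM1 knockout both were highest in replicate 3. From replicate 1 to replicate 2 the marker sum rose, mostly in Ncam1 (34.6 and 149 CPM). The alpha and beta cluster sums fell, but that of Pcdhb1 to Pcdhb13 did not. The markers summed to 59.2 and 188 CPM in those libraries, the alpha cluster to 2.37 and 0.815 CPM and the beta cluster to 54.9 and 45.7 CPM. In replicate 3 the markers summed to 1871 CPM, of which Calca made up 832 CPM. Pcdhb1 to Pcdhb13 reached 35.6 CPM there, beside 4.47 and 4.89 CPM in replicates 1 and 2. The lowest TKO library was at 111 CPM for these genes. The alpha alternates were at 2.97 CPM in replicate 3, against 38.8 CPM in that TKO library. Gamma A in replicate 3, at 29.7 CPM, was close to the 27.3 CPM of replicate 2. Of the 12 neuroendocrine markers 1 was lower in CARM1 knockout and 11 in NFIB mutant, where 18.3% and 23.5% of all genes were lower. All 6 fibroblast markers were higher in CARM1 knockout and 5 in NFIB mutant, where 20.5% and 22.3% of all genes were higher. The part of these cell type markers in the protocadherin results was not tested.

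The open chromatin peaks gave a second view of the same clusters. Of 48 tested peaks 25 were less open and 9 more open in CARM1 knockout than in TKO, where 32.4% and 38.7% of all peaks were called lower and higher. In NFIB mutant 23 were less open and 13 more open, where 34.0% and 39.3% of all peaks were called. The median log2 fold changes were -1.33 and -1.09, beside 0.22 and 0.22 over all peaks. All 6 mutant libraries were below TKO at 19 peaks and above it at 8, where 28.6% and 33.1% of all peaks were so placed. With libraries scaled by their totals alone, 18 were more open and 23 less open in CARM1 knockout, and 18 and 20 in NFIB mutant, since that scaling moved the median of all peaks by 0.57. By cluster, the alpha and beta calls fell mostly one way. In the alpha cluster 10 of 12 peaks were less open in each mutant and 1 was more open. In the beta cluster 11 and 9 of 14 were less open and 0 were more open. In the gamma cluster 8 and 11 of 18 were more open and 2 were less open. In CARM1 knockout the gamma share more open, 44.4%, is near the 38.7% over all peaks. In NFIB mutant it was 61.1% beside 39.3%. Between the mutants 0% of all peaks were called by edgeR, with 1 member peak at an unadjusted p under 0.05, and DESeq2 called 0 member peaks where it called 0.949% of all peaks, too few for that 0 to be read as a result.

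**Figure D4:**
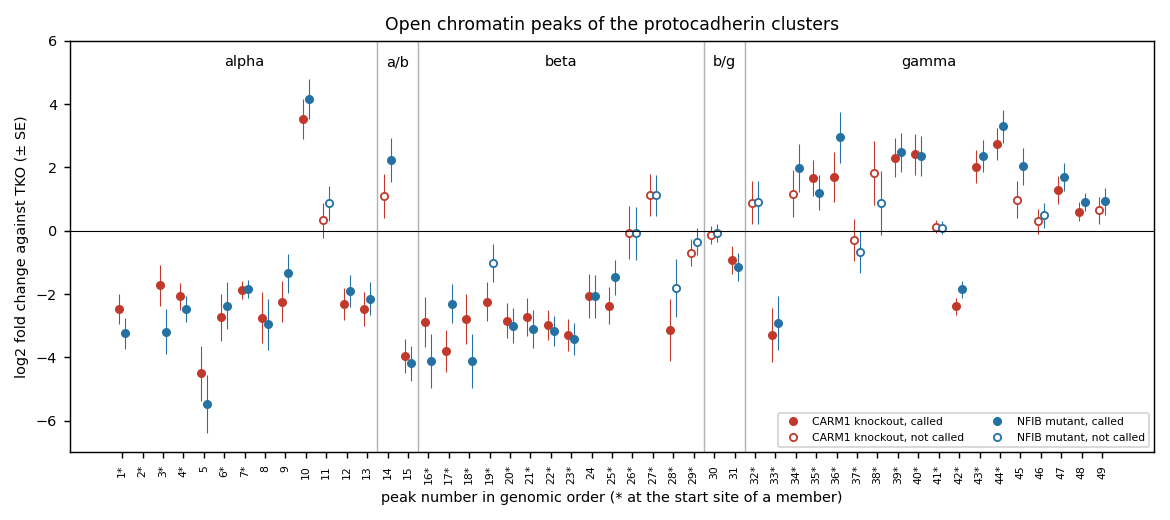
Log2 fold change against TKO, with SE, of the 48 tested peaks, of 49, in genomic order from the alpha to the gamma cluster (filled points are called, a star marks a peak at the start site of a member). Alpha and beta peaks are mostly below 0 and gamma peaks mostly above it, in CARM1 knockout and NFIB mutant alike.

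In the alpha cluster a peak at the start of Pcdhac2 (chr18:37143061-37145123) stood at 33.3, 30.3 and 25.6 CPM in TKO, at 8.88, 8.21 and 7.13 CPM in CARM1 knockout and at 7.05, 5.82 and 12 CPM in NFIB mutant. It was less open in CARM1 knockout (-1.88 ± 0.29, adjusted p = 0.000420) and NFIB mutant (-1.84 ± 0.29, adjusted p = 0.000417), with no overlap. A weaker peak just before it (chr18:37142435-37142841) fell from a mean of 1.56 ± 1.25 CPM to 0.236 ± 0.0882 and 0.302 ± 0.00959 CPM, though TKO replicate 3 at 0.296 CPM lay among the mutants. The largest fall among the called peaks of the interval was at a peak centred at -7768 bp from the start of Pcdhac1, upstream of it and in an exon of the predicted gene Gm19035 (chr18:37081658-37082832). It stood at 13.9, 18.7 and 5.07 CPM in TKO, at 0.129, 0.211 and 1.33 CPM in CARM1 knockout and at 0.418, 0.240 and 0.196 CPM in NFIB mutant (-4.50 ± 0.87, adjusted p = 0.00141; -5.47 ± 0.92, adjusted p = 0.000606).

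The 1 alpha peak that opened lay 10755 bp into Pcdhac2, past its variable exon (chr18:37154022-37154495). It stood at 0.128, 0.0618 and 0.127 CPM in TKO, at 1.89, 0.691 and 1.16 CPM in CARM1 knockout and at 1.70, 1.40 and 2.65 CPM in NFIB mutant (3.54 ± 0.63, adjusted p = 0.000941; 4.16 ± 0.64, adjusted p = 0.000370). Its neighbours on either side were less open or not called.

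Between the alpha and beta clusters a broad peak (chr18:37216646-37218530) began 29.0 kb after the end of the alpha genes, and its middle was 47.4 kb before the start of Pcdhb1. It stood at 28.2, 27.0 and 17.9 CPM in TKO, at 1.19, 0.921 and 2.59 CPM in CARM1 knockout and at 1.14, 0.697 and 2.14 CPM in NFIB mutant. It was less open by log2 fold changes of -3.96 ± 0.54 (adjusted p = 0.000205) and -4.19 ± 0.54 (adjusted p = 0.000142), with a wide gap between TKO and all mutant libraries. An enhancer of the alpha promoters is known downstream of the alpha constant exons, and whether this peak is that enhancer was not tested.

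In the beta cluster the peak at the start of Pcdhb1 stood at 6.75, 9.05 and 5.79 CPM in TKO, at 0.155, 0.845 and 1.91 CPM in CARM1 knockout and at 0.179, 0.794 and 0.255 CPM in NFIB mutant (-2.89 ± 0.80, adjusted p = 0.00875; -4.12 ± 0.85, adjusted p = 0.00182). The peak at the start of Pcdhb2 stood at 2.90, 3.80 and 4.18 CPM in TKO, at 0.129, 0.230 and 0.411 CPM in CARM1 knockout and at 0.896, 0.240 and 1.06 CPM in NFIB mutant (-3.80 ± 0.67, adjusted p = 0.000832; -2.30 ± 0.62, adjusted p = 0.00713). Neither overlapped between TKO and the mutants. The start-site peaks of Pcdhb16 and Pcdhb17, whose RNA was not called, were not called either. RNA and start-site peak differed in call elsewhere, in cases named after their values were seen. The peak of Pcdhb21 was not called (-0.70 ± 0.43, adjusted p = 0.170; -0.34 ± 0.42, adjusted p = 0.489) although its RNA was lower in both (-2.21 and -1.52). The peaks of Pcdhb5 and Pcdhb20 were less open in CARM1 knockout (-2.24 and -3.13) but not called in NFIB mutant (-1.02, adjusted p = 0.145, and -1.80, adjusted p = 0.101), although the RNA of both genes was lower there. Conversely, the peaks of Pcdhb1, Pcdhb4, Pcdhb6, Pcdhb9 and Pcdhb10 were less open in CARM1 knockout, where their RNA was not called.

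In the gamma cluster the peak at the start of Pcdhga7 stood at 0.350, 0.278 and 0.465 CPM in TKO, at 1.5, 1.57 and 0.459 CPM in CARM1 knockout and at 5.65, 0.577 and 2.24 CPM in NFIB mutant (1.69 ± 0.80, adjusted p = 0.0808; 2.95 ± 0.82, adjusted p = 0.00853). The low CARM1 knockout library was replicate 3 and the low NFIB mutant library was replicate 2, as in its RNA. The peak at the start of Pcdhgc4 (chr18:37813640-37816334) stood at 50.03, 43.7 and 34.0 CPM in TKO, at 6.66, 6.43 and 11.2 CPM in CARM1 knockout and at 13.3, 12.4 and 9.65 CPM in NFIB mutant, with no overlap. It was less open in both (-2.39 ± 0.27, adjusted p = 8.7e-05, and -1.85 ± 0.27, adjusted p = 0.000258).

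The peaks at the starts of the other gamma C-type members were not less open. The broad peak over the start of Pcdhgc3 (chr18:37805745-37808843), whose RNA was higher, stood at 33.9, 39.7 and 32.5 CPM in TKO, at 34.6, 36.8 and 44.9 CPM in CARM1 knockout and at 33.0, 48.9 and 31.5 CPM in NFIB mutant. It was not called (0.13 ± 0.19, adjusted p = 0.563; 0.10 ± 0.19, adjusted p = 0.670), and its genotypes overlapped. A small peak just before it (chr18:37804925-37805618) rose from a mean of 0.399 ± 0.302 CPM to 2.17 ± 0.662 CPM in CARM1 knockout and to 2.08 ± 0.894 CPM in NFIB mutant (2.41 ± 0.64, adjusted p = 0.00708; 2.35 ± 0.64, adjusted p = 0.00745). The peak at the start of Pcdhgc5 (chr18:37818889-37820331) stood at 0.733, 0.989 and 0.760 CPM in TKO, at 5.01, 3.82 and 7.88 CPM in CARM1 knockout and at 11.7, 3.70 and 9.04 CPM in NFIB mutant. It was more open in both (2.74 ± 0.51, adjusted p = 0.00117; 3.29 ± 0.52, adjusted p = 0.000436), and a neighbour in an exon of Pcdhgc4 also opened (2.02 ± 0.51 and 2.36 ± 0.52).

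Of the 5 most abundant peaks of the interval, a pair lay within Pcdhgc5, after its variable exon. The one at chr18:37834950-37837316, within the introns ahead of the last shared gamma exon, stood at 24.3, 21.8 and 15.1 CPM in TKO, at 31.5, 31.1 and 30.5 CPM in CARM1 knockout and at 26.0, 59.3 and 29.4 CPM in NFIB mutant. All mutant libraries were above TKO, and it was more open in CARM1 knockout (0.60 ± 0.29, adjusted p = 0.0897) and NFIB mutant (0.91 ± 0.29, adjusted p = 0.0184). The other, over a gamma constant exon (chr18:37823217-37826924), was not called (0.30 ± 0.40 and 0.48 ± 0.40).

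The labels give RNA-seq and ATAC-seq libraries the same replicate numbers, and the study's text says that both assays used the same biopsies. Library by library, RNA and start-site peak were therefore set side by side for the 28 members with such a peak (panels of RNA against peak). Within NFIB mutant, the library with the highest RNA was also the one with the most open start site for 8 of 8 gamma A and B members. Within CARM1 knockout this held for 5 of 8 and within TKO for 4 of 8. Over all members detected in the genotype it was 15 of 20 in NFIB mutant, 20 of 25 in CARM1 knockout and 13 of 28 in TKO. Over all other genes with a start-site peak it was 45.2%, 51.5% and 51.7%. Among the NFIB mutant libraries, Pcdhgb8 was highest in RNA, at 23.6 CPM, and most open in replicate 2, Pcdhga7 in replicate 1 and Pcdhga5 in replicate 3. Over all libraries the start-site peak of Pcdhgb8 was most open in CARM1 knockout replicate 3, at 11.4 CPM beside 10.5 CPM in NFIB mutant replicate 2. That peak was more open in CARM1 knockout (2.30 ± 0.61, adjusted p = 0.00740) as well as in NFIB mutant (2.48 ± 0.62, adjusted p = 0.00497), although the RNA was not called in CARM1 knockout. The members of a cluster share their libraries, so these counts are a description and were given no test.

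**Figure D5:**
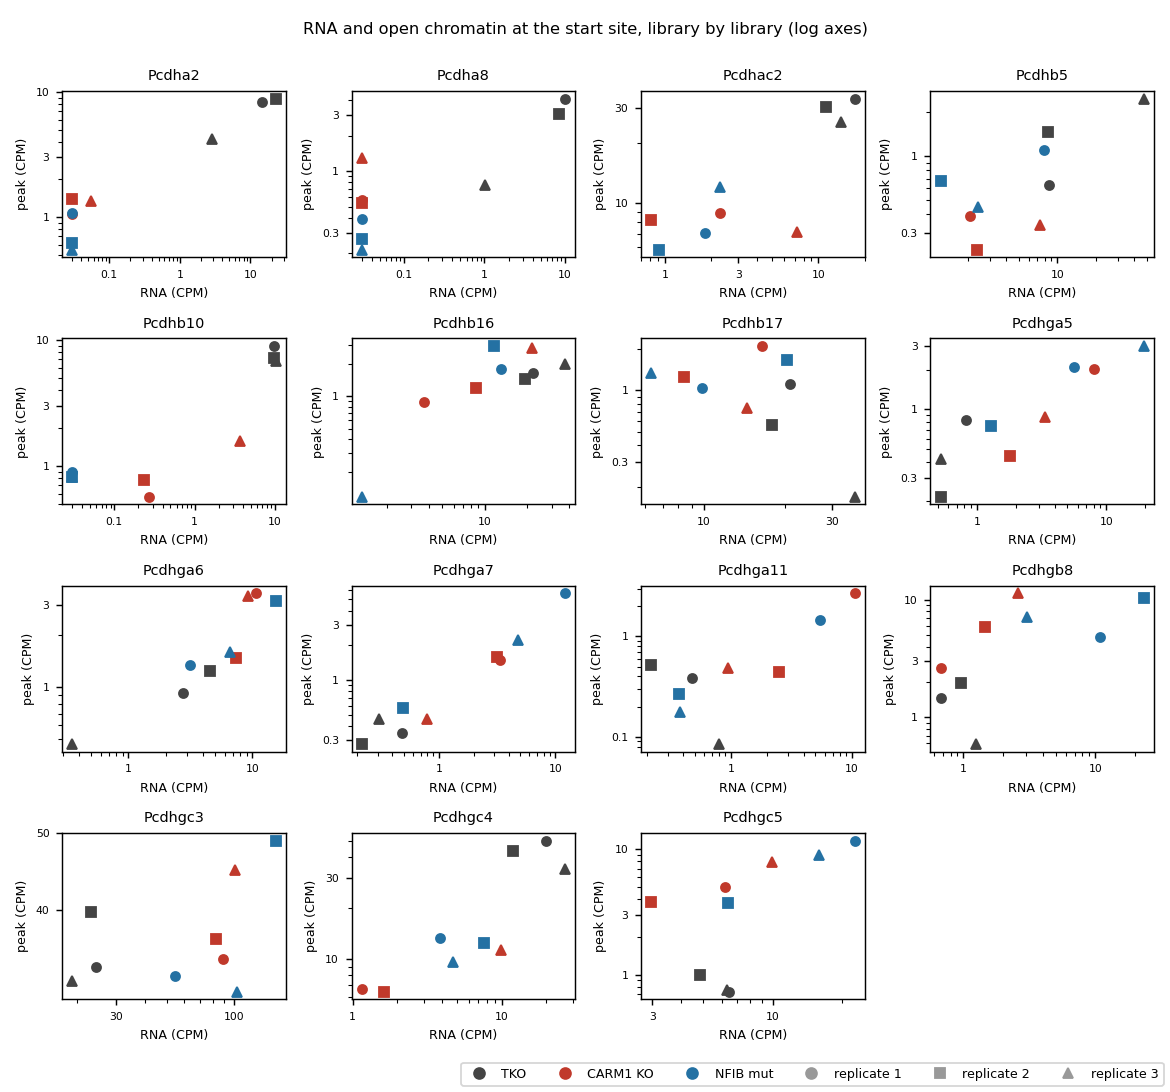
RNA (x axis, CPM, log) against the start-site peak (y axis, CPM, log) for 15 members in each of 9 libraries, coloured by genotype and shaped by replicate number, with RNA below 0.03 CPM drawn at 0.03. Pcdhac2 and Pcdhgc4 separate TKO from the mutants on both axes, whereas for Pcdhgc3 they separate on RNA alone.

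Genes outside the clusters on the same chromosome had medians near 0. Within 1 Mb on either side 33 genes were tested, of which 8 were higher and 3 lower in CARM1 knockout and 10 higher and 7 lower in NFIB mutant, with medians of 0.06 and 0.21. These are 24.2% and 9.09%, and 30.3% and 21.2%, of them, beside 20.5% and 18.3%, and 22.3% and 23.5%, over all genes. Of 185 flanking peaks 67 were more and 48 less open in CARM1 knockout and 77 and 52 in NFIB mutant, which is 36.2% and 25.9%, and 41.6% and 28.1%, beside 38.7% and 32.4%, and 39.3% and 34.0%, over all peaks. The medians of the other peaks of chromosome 18 were 0.64 and 0.65. The 372 other tested genes of chromosome 18 had medians of 0.03 and 0.07.

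Genes known to act on the clusters were taken from a list of 26. In CARM1 knockout 1 was higher and 7 lower (median -0.62), where 18.3% of all genes were lower, and in NFIB mutant 1 higher and 11 lower (median -0.67), where 23.5% were lower. Rest, a repressor of neuronal genes outside neurons, was the riser in both. It stood at 4.17, 6.68 and 5.62 CPM in TKO, at 60.03, 60.4 and 49.98 CPM in CARM1 knockout and at 57.4, 63.8 and 47.2 CPM in NFIB mutant (3.37 ± 0.24, adjusted p = 0.000331; 3.35 ± 0.24, adjusted p = 0.000257). Its genotypes were far apart, and CARM1 knockout replicate 3 was with the other mutants. Tet1, which oxidises methylated cytosine, stood at 79.1, 54.7 and 72.4 CPM in TKO, at 0.541, 1.34 and 11.9 CPM in CARM1 knockout and at 0.910, 0.739 and 0.0634 CPM in NFIB mutant (-3.90 ± 1.19, adjusted p = 0.0372; -6.89 ± 1.39, adjusted p = 0.00706). Dnmt3a, a DNA methyltransferase, stood at 248, 160 and 321 CPM in TKO, at 40.3, 48.3 and 120 CPM in CARM1 knockout and at 24.2, 39.3 and 28.0 CPM in NFIB mutant (-1.80 ± 0.46, adjusted p = 0.0209; -3.0 ± 0.49, adjusted p = 0.00307).

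Tet2, Tet3 and the cohesin subunits Smc1a and Stag2 were also lower in both, by log2 fold changes of -1.84 to -0.96 in CARM1 knockout and -1.75 to -1.02 in NFIB mutant. Ctcf, the boundary factor, was not called (-0.32 ± 0.17, adjusted p = 0.170; -0.63 ± 0.17, adjusted p = 0.0204). Its change was smaller than 0.8 in both, and in CARM1 knockout its adjusted p was also above 0.1. Of 9 tested protocadherins outside the clusters 3 were higher and 1 lower in CARM1 knockout, and 3 higher and 3 lower in NFIB mutant (medians 0.28 and 0.64), where 20.5% and 18.3%, and 22.3% and 23.5%, of all genes were called. Pcdh7 stood at 6.57, 1.79 and 5.18 CPM in TKO, at 220, 89.7 and 118 CPM in CARM1 knockout and at 216, 207 and 130 CPM in NFIB mutant (4.98 ± 0.59 and 5.35 ± 0.60). Pcdh18 and Pcdh19 were also higher in both, and Pcdh17 was lower in both (-5.68 ± 0.97 and -2.29 ± 0.82).

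Of 18 proteins listed as partners of protocadherins, inside the cell or at its surface, 4 were higher and 4 lower in each mutant (medians 0.34 and 0.38). These shares are close to those over all genes, of 20.5% higher and 18.3% lower in CARM1 knockout, and 22.3% and 23.5% in NFIB mutant. Most of the called genes, singled out here after their values were seen, belong to the WAVE complex, which drives actin assembly, and its members Nckap1 (0.68 and 0.62) and Brk1 (0.26 and 0.28) were not called. Wasf2, Cyfip1 and Abi1 were higher in both mutants, by log2 fold changes of 1.16 to 1.67 in CARM1 knockout and 1.28 to 1.65 in NFIB mutant. Wasf1, Cyfip2 and Abi2, the paralogs known from neurons, were lower in both, by -3.01 to -1.12 and by -8.75 to -1.32. The kinase Ptk2b was higher in both (4.87 ± 1.29 and 5.68 ± 1.34), and the synaptic adhesion protein Nlgn1 stood at 19.4, 25.4 and 26.1 CPM in TKO, at 0, 0.117 and 2.92 CPM in CARM1 knockout and at 0.182, 0 and 0 CPM in NFIB mutant. CARM1 knockout replicate 3 lay nearest to TKO for Nlgn1, as for the summed alpha alternates and first beta members, and Cyfip2 in that library was at 65.1 CPM beside 3.05 and 1.92 CPM in replicates 1 and 2.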

How the data were processed

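Cells sorted from lung tumors of 3 genotypes were measured by RNA-seq and ATAC-seq, with 9 libraries per assay. The authors trimmed reads, mapped RNA-seq to mm10 with HISAT2 and deposited gene counts from htseq-count. For ATAC-seq they mapped with Bowtie2, removed duplicates and deposited counts from featureCounts 1.6.3 on 1 merged peak set, leaving out peaks in putative copy number changes. Both tables hold raw counts. Whether counting used strand was not given in the sources used here. In the tables C marks TKO, KO marks CARM1 knockout and N marks the NFIB mutant, by the wording of the study. The 5 htseq-count summary entries were left out, among them ambiguous reads at 3.84 to 4.50% of each library. Gene models were GENCODE M21 on GRCm38.

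Counts were fitted with edgeR 4.0.16 in R 4.3.3 (filterByExpr, TMM, robust quasi-likelihood test, Benjamini-Hochberg adjustment over all features), 1 model of 9 libraries per assay. The script was tested on simulated data. Thresholds follow the study. Peaks within 1000 bp of a start site were counted as start-site peaks. Members, lists and tests were chosen with earlier results of these data known. Named members are the C-type members, the 4 of highest mean CPM per cluster, and the 3 largest called rises and falls per comparison at 1 CPM or more. Named peaks follow a like rule with the 5 of highest mean. Counting intervals are 95% Poisson intervals and cover counting error only. Alternatives included DESeq2 1.42.0, other scalings, filters and thresholds, and each library left out. The sources name 3 independent animals per genotype.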

Additional observations from a re-analysis of the deposited data

How the results depend on the processing

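Counts of called members depended most on the filter and on single libraries, and no called value turned its direction under any alternative run. For most alternatives the shares called over all features are not given here. A general change in calls therefore cannot be told apart from one at the members. With at least 10 counts in every library, which leaves 23 members and 30 peaks, 4 members were higher and 10 lower in CARM1 knockout and 11 lower in NFIB mutant, while 15 peaks were less open in CARM1 knockout and 8 more and 14 less open in NFIB mutant. At an adjusted p under 0.05, 4 members were higher in CARM1 knockout. DESeq2 called 3 members higher and 1 lower between the mutants, and the cause was not tested. With library totals alone 18 peaks were more open in CARM1 knockout, and that scaling moved the median of all genes by -0.27 in CARM1 knockout and -0.32 in NFIB mutant. Leaving out 1 library at a time gave 2 to 8 members higher and 18 to 32 lower in CARM1 knockout, 4 to 6 and 22 to 32 in NFIB mutant, and 0 between them. It gave 8 to 10 peaks more and 22 to 26 less open in CARM1 knockout, and 11 to 13 and 21 to 24 in NFIB mutant. The highest count of lower members in CARM1 knockout, 32, was without its replicate 3 and the lowest count of higher ones, 2, without TKO replicate 1. The replicate numbers did not pair the samples, since same-numbered libraries correlated between -0.29 and 0.115 for RNA and between -0.138 and 0.117 for peaks. With a replicate block 6 members were higher and 22 lower in CARM1 knockout and 5 and 26 in NFIB mutant, and 9 and 25 peaks and 12 and 23 peaks were more and less open. Of the 999 values of single members and peaks under alternatives, 905 kept direction and call, 67 lost the call, 26 gained it and 1, the level of Pcdhgc3 per kb when all its exons were counted (17.7 CPM), moved beyond its spread. Members with under 10 reads, such as Pcdhac1, were limited by depth: the floor of 3 counts was 0.131 to 0.203 CPM.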

Other observations

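Taf7, a gene of the general transcription machinery that lies inside the interval between the beta and gamma clusters, was chosen after its values were seen. It stood at 13.8, 17.7 and 15.3 CPM in TKO, at 3.72, 2.56 and 4.26 CPM in CARM1 knockout and at 6.37, 6.59 and 3.68 CPM in NFIB mutant, so that all mutant libraries were below TKO. It was lower in CARM1 knockout (-2.15 ± 0.39, edgeR adjusted p = 0.00552) and NFIB mutant (-1.49 ± 0.38, adjusted p = 0.0161). The peak over its annotated start site (chr18:37643694-37644932) was not called in either (-0.13 and -0.09). Besides Taf7, 26 genes that are no members lie inside the interval. Of these 4 were tested, of which 2 were lower in CARM1 knockout and 1 in NFIB mutant. The shares over all genes were 18.3% and 23.5%, and 4 genes are too few to be set against them.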
